A study of Chromochloris zofingiensis with 12 samples.

Results

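In *Chromochloris zofingiensis*, 94 genes that were expressed with 10 mM nitrate were much higher with 1 mM nitrate at both irradiances. They were selected on these measurements, out of 14916 genes above 0 in at least 1 library. A member had to be higher by at least 2 on the log2 scale, about 4-fold, in HL 1 mM than in HL 10 mM and also in LL 1 mM than in LL 10 mM. It had to be higher by less than 1 in HL 10 mM than in LL 10 mM, and to reach 1 FPKM in at least 1 library at 10 mM. The genes of carotenoid synthesis that the study followed and the 100 most abundant genes of LL 10 mM were to be left out, although neither exclusion removed a gene. The members were thus chosen by both nitrate differences and by the light difference at 10 mM, so those values are described here without a test.

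The cultures were of the wild type of strain CCAP 211/14, a unicellular freshwater green alga, grown continuously at a dilution rate of 0.5 per day under a cycle of light and dark. The 4 conditions, HL 1 mM, HL 10 mM, LL 1 mM and LL 10 mM, combine light and nitrate, where HL is a maximum irradiance of 1000 µE m-2 s-1 at the reactor surface, LL is 300 µE m-2 s-1, and the concentration is that of nitrate in the feed. Each condition had 3 libraries of polyadenylated RNA from cells taken 4 h after the light came on, 12 in all. Cells were sampled on 3 consecutive days, but neither the labels nor the methods tie a replicate number to a day or a reactor, so the p-values below measure the spread between these libraries, which may be technical. Since RNA was taken from whole cultures, fewer cells expressing a gene and less RNA per cell cannot be told apart.

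Nitrate is taken up by transporters, reduced to ammonium by nitrate reductase and nitrite reductase, and built into amino acids by glutamine synthetase and glutamate synthase. Green algae short of nitrogen generally raise transcripts for nitrogen uptake and recycling, lower those of the photosynthetic machinery, and store carbon as starch and neutral lipid. *C. zofingiensis* is known for storing neutral lipid together with astaxanthin, a red ketocarotenoid, under such conditions. The data used here pair the member IDs with no gene product, so the members are described by their ID, level and pattern, and which of these functions they serve is not given.

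Levels are given in FPKM, a read density corrected for the length of the transcript and the size of the library, which is the unit the values point to although the sources do not name it. Differences are on the log2(FPKM + 1) scale after quantile normalization, which gives all 12 libraries the same distribution of values, and the added 1 makes differences of low genes smaller. The deposited values summed to between 956599 and 1126292 FPKM per library, and read counts behind them are not known. Median levels of all 15274 genes listed, with those at 0 throughout, lay between 17.1 and 20.1 FPKM in the 6 libraries at 1 mM. At 10 mM they lay between 12.1 and 14.0 FPKM. Without quantile normalization, the median difference over the 14916 genes was 0.33 for HL 1 mM minus HL 10 mM and 0.31 for LL 1 mM minus LL 10 mM. With it the medians were -0.08 and -0.04. Of the 94 members, 93 met the rule on values that were not quantile-normalized, and 86 after scaling to the same median.

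Of all genes, 251, or 1.68%, were higher by at least 2 in HL 1 mM than in HL 10 mM, and 145, or 0.972%, in LL 1 mM than in LL 10 mM. Both thresholds were met by 117 genes, the one at HL alone by 134 and the one at LL alone by 28. Of the 117, 18 were under 1 FPKM in every library at 10 mM and 5 more were higher by 1 or more in HL 10 mM than in LL 10 mM, which leaves the 94 members. Among these, the difference between HL 1 mM and HL 10 mM was 2.02 to 8.56 with a median of 3.12, and that between LL 1 mM and LL 10 mM was 2.03 to 8.05 with a median of 2.65. In both pairs of conditions 28 members were higher by at least 3 and 9 by at least 4, while 44 lay under 2.5 in at least one of them.

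**Figure D1:**
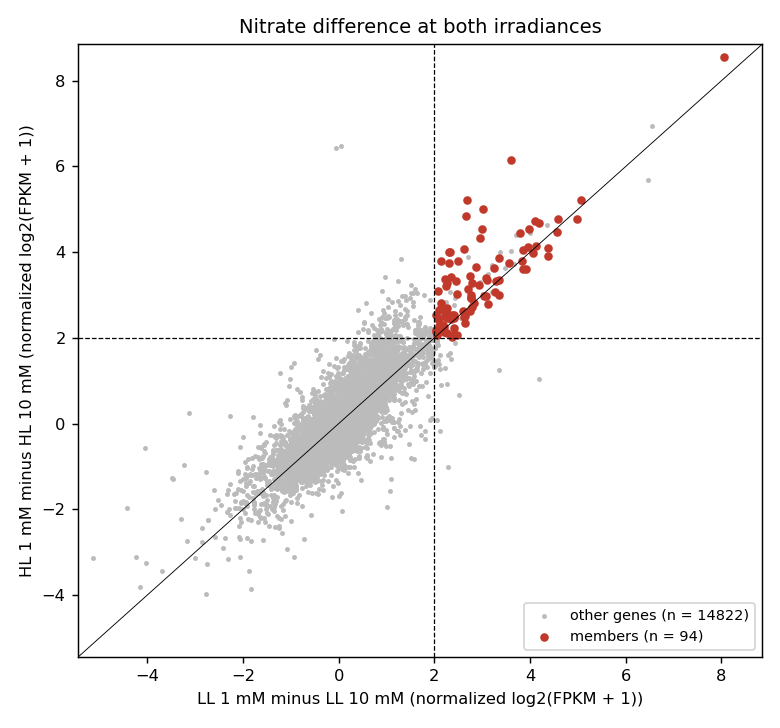
Nitrate differences of 14916 genes on the normalized log2(FPKM + 1) scale, with LL 1 mM minus LL 10 mM on the x axis and HL 1 mM minus HL 10 mM on the y axis; red points are the 94 members, grey points all other genes, dashed lines the thresholds of 2 and the solid line equal differences. The members fill the upper right corner by the rule, and 68 of the 94 lie above the line.

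As a group, the members took up 4.07 ± 0.0993% of the summed FPKM in HL 1 mM, against 0.371 ± 0.0316% in HL 10 mM, and 3.6 ± 0.0640% in LL 1 mM, against 0.319 ± 0.0353% in LL 10 mM (SD, n = 3 each). Between 5 and 6 of the 100 most abundant genes of each library at 1 mM were members, and 0 of those of each library at 10 mM. The mean of a member over the 6 libraries at 1 mM ranged from 11.2 to 8426 FPKM, with a median of 102, against 0.307 to 1064 FPKM and a median of 8.43 at 10 mM. At 1 mM, 10 members averaged 1000 FPKM or more, 39 between 100 and 1000, and 45 less. At 10 mM, 7 averaged 100 FPKM or more, 35 between 10 and 100, and 52 less than 10, and 72 members reached 1 FPKM in all 6 libraries. Detection in at least 1 library with ample nitrate is set by the rule. Most members were at low levels there, and some were among the most abundant transcripts at 1 mM.

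**Figure D2:**
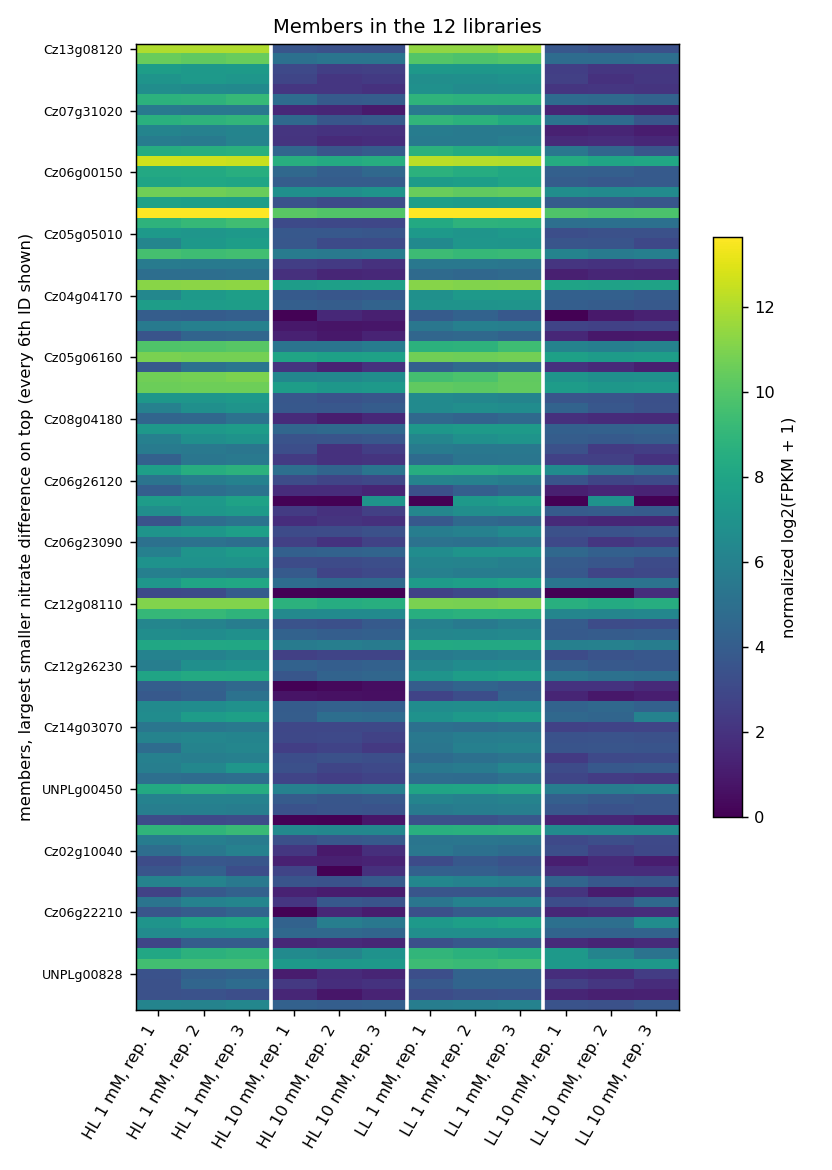
Normalized log2(FPKM + 1) of the 94 members (rows, the largest smaller nitrate difference on top) in the 12 libraries (columns, 3 per condition, white lines between conditions). The libraries of HL 1 mM and of LL 1 mM are brighter than those at 10 mM in every row but that of Cz01g28180, whose libraries are split within conditions.

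Ranked by the smaller of their 2 nitrate differences, the first member was Cz13g08120, on the chromosome numbered 13 by its ID. Its deposited values were 2980, 3183 and 2990 FPKM in HL 1 mM, against 8.63, 6.82 and 7.96 FPKM in HL 10 mM. In LL 1 mM they were 2400, 2657 and 2789 FPKM, against 10.5, 6.86 and 7.07 FPKM in LL 10 mM. These are ratios of means of 391 and 322, and the gene was among the 10 most abundant members at 1 mM, while at 10 mM its mean of 7.97 FPKM was close to the median of the members. The next by this ranking was Cz06g25040, with 1140, 1066 and 1078 FPKM in HL 1 mM, against 29.5, 34.8 and 37.5 FPKM in HL 10 mM. In LL 1 mM, Cz06g25040 had 948, 892 and 959 FPKM, against 24.3, 22.3 and 25.7 FPKM in LL 10 mM. The libraries of each condition lay close together for both genes, and those at 1 mM were far above those at 10 mM.

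Several of the next members were nearly silent at 10 mM. Cz07g19200 had 204, 181 and 184 FPKM in HL 1 mM, against 4.78, 2.97 and 3.95 FPKM in HL 10 mM, and 157, 154 and 158 FPKM in LL 1 mM, against 3.51, 2.19 and 2.64 FPKM in LL 10 mM. Cz08g10070 had 145, 174 and 154 FPKM in HL 1 mM, against 4.09, 2.04 and 2.90 FPKM in HL 10 mM, and 111, 115 and 126 FPKM in LL 1 mM, against 3.84, 1.79 and 2.75 FPKM in LL 10 mM. Cz08g13170 had 111, 99.3 and 93.3 FPKM in HL 1 mM, against 1.94, 2.02 and 2.07 FPKM in HL 10 mM, and 118, 97.6 and 103 FPKM in LL 1 mM, against 2.38, 2.17 and 2.39 FPKM in LL 10 mM. These members were 42.0 to 56.3 times higher at 1 mM by the ratio of means. Their values in HL 1 mM and LL 1 mM overlapped for Cz08g13170, and were higher in HL 1 mM without overlap for Cz07g19200 and Cz08g10070, neither of which passed the test described below. Cz07g31020 showed the same pattern lower down, with 52.3, 47.8 and 48.6 FPKM in HL 1 mM, against 0.996, 0.977 and 0.661 FPKM in HL 10 mM, and 48.6, 43.2 and 42.7 FPKM in LL 1 mM, against 1.09, 0.880 and 0.987 FPKM in LL 10 mM. It was kept through a single library, since at 10 mM only replicate 1 of LL 10 mM reached 1 FPKM. In all, 3 members were kept through 1 library at 10 mM, not always the same one.

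Cz01g30160 and Cz14g15160 complete the first 8 members by the smaller of the 2 differences, and both varied more at 10 mM than at 1 mM. Cz01g30160 had 433, 468 and 514 FPKM in HL 1 mM, against 24.3, 10.6 and 13.0 FPKM in HL 10 mM, and 467, 449 and 427 FPKM in LL 1 mM, against 23.5, 20.2 and 15.3 FPKM in LL 10 mM. Cz14g15160 had 416, 469.7 and 492 FPKM in HL 1 mM, against 21.3, 8.83 and 12.9 FPKM in HL 10 mM, and 521, 429 and 330.4 FPKM in LL 1 mM, against 33.6, 21.7 and 9.17 FPKM in LL 10 mM. In HL 10 mM, replicate 1 was the highest library of both genes, and in LL 10 mM as well.

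The most abundant member was Cz16g07340. It had 8804, 8939 and 8263 FPKM in HL 1 mM, against 1283, 1202 and 1213 FPKM in HL 10 mM. In LL 1 mM it had 8214, 8332 and 8003 FPKM, against 935, 864 and 886 FPKM in LL 10 mM. This single gene accounted for 0.823 to 0.924% of the summed FPKM in each library at 1 mM, against 0.0768 to 0.118% at 10 mM, where it was also the most abundant member. Its ratio of means was 7.03 at HL and 9.14 at LL, below the medians of 15.6 and 9.48 over the members with no library at 0 in the conditions compared. After quantile normalization it had one and the same value in all 6 libraries at 1 mM, 13.64, because it held the same rank in each of them.

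Some other abundant members also combined a high level at 10 mM with a moderate ratio. Cz05g12170 had 1987, 2164 and 2183 FPKM in HL 1 mM, against 187, 207 and 213 FPKM in HL 10 mM, and 2103, 2098 and 2000 FPKM in LL 1 mM, against 223, 201 and 206 FPKM in LL 10 mM. Cz12g08110 had 1768, 1839 and 1712 FPKM in HL 1 mM, against 453, 353 and 373 FPKM in HL 10 mM, and 1816, 1792 and 1728 FPKM in LL 1 mM, against 349, 295 and 330.1 FPKM in LL 10 mM. Cz05g06160 had 1581, 1560 and 1490 FPKM in HL 1 mM, against 262, 216 and 232 FPKM in HL 10 mM, and 1541, 1516 and 1584 FPKM in LL 1 mM, against 194, 163 and 177 FPKM in LL 10 mM. For these members the nitrate ratio of means was 4.51 to 10.4, and their deposited values in HL 1 mM and LL 1 mM overlapped. At LL the ratio of Cz05g12170, 9.85, was above the median of the members, 9.48. Not every abundant member had a moderate ratio. Cz13g08120, at a mean of 2833 FPKM at 1 mM, had ratios of 391 at HL and 322 at LL. Cz08g30210, at 3798 FPKM, had ratios of 10.6 and 14.7.

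**Figure D3:**
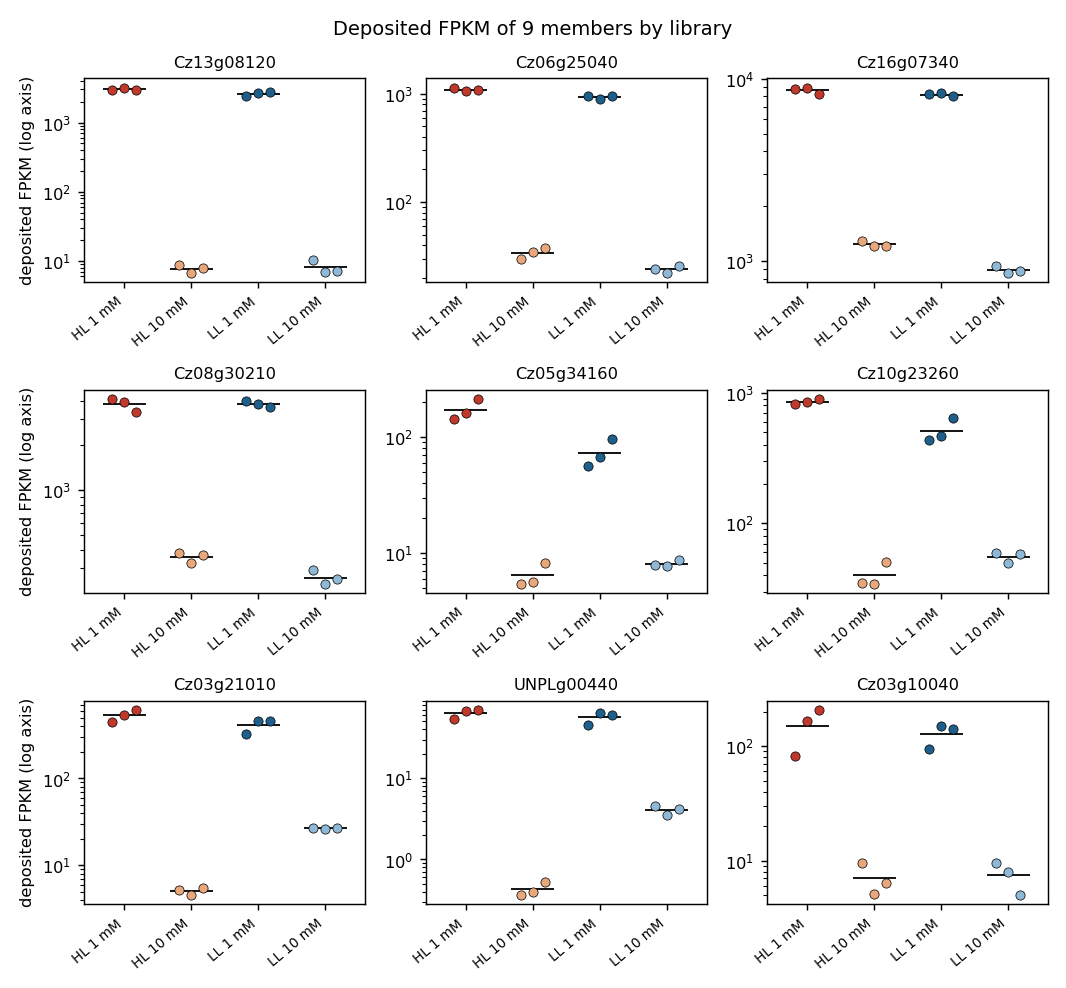
Deposited FPKM (log axis) of 9 members in each library of HL 1 mM, HL 10 mM, LL 1 mM and LL 10 mM, with points for the 3 libraries and lines for their means. Every library at 1 mM lies above every library at 10 mM in each panel, while Cz03g21010 and UNPLg00440 are also lower in HL 10 mM than in LL 10 mM.

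Separation between the nitrate levels was complete in the deposited values for 93 of 94 members: every library at 1 mM was above every library at 10 mM, which the rule largely fixes. The exception, Cz01g28180, was singled out after its values were seen. It had 200.3, 183 and 236 FPKM in HL 1 mM, against 0, 0 and 131 FPKM in HL 10 mM, and 0, 169.5 and 201 FPKM in LL 1 mM, against 0, 107 and 0 FPKM in LL 10 mM. Values this far apart within a condition may include failed estimates, so its differences of 5.22 and 2.69 describe how often the gene is listed at 0 rather than a level. In all, 7 members are listed at 0 in at least 1 library, each of them in HL 10 mM, 3 also in LL 10 mM and 1 at 1 mM.

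How much the nitrate difference depended on irradiance varied among the members. It was the larger at HL for 68 of 94, and exceeded that at LL by 1 or more for 16, whereas for 0 members it was larger by 1 or more at LL. The difference of these 2 differences is the light difference at 1 mM minus that at 10 mM. In 12 of the 16 the level in HL 10 mM was lower than in LL 10 mM by at least 0.5, in 10 the level in HL 1 mM was higher than in LL 1 mM by at least 0.5, and in 6 both held. The rule capped the light difference at 10 mM from above and not from below, which favours this direction, and no test of the asymmetry was made. These counts were not taken over all genes, of which 251 met the threshold of 2 at HL and 145 that at LL.

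At 10 mM nitrate the light difference of the members ranged from -2.03 to 0.76 with a median of -0.06, against a median of 0.02 over all genes. HL 10 mM was lower than LL 10 mM by at least 1 for 7 members (7.45%), where the share of all genes was 1.24%, but the rule used this contrast and nothing is read from the difference. The lowest were Cz03g21010 and UNPLg00440. Cz03g21010 had 5.14, 4.58 and 5.43 FPKM in HL 10 mM, against 27.0, 26.2 and 27.1 FPKM in LL 10 mM, without overlap. At 1 mM nitrate it had 442, 539 and 614 FPKM in HL 1 mM, against 324, 458 and 454 FPKM in LL 1 mM, so the gene was lowest where irradiance was high and nitrate ample. UNPLg00440, on no numbered chromosome, had 0.367, 0.403 and 0.529 FPKM in HL 10 mM, against 4.59, 3.57 and 4.21 FPKM in LL 10 mM. Its libraries at 1 mM overlapped, with 53.6, 68.2 and 69.4 FPKM in HL 1 mM, against 45.3, 62.8 and 60.3 FPKM in LL 1 mM.

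At the other end, nearest under the cap, were Cz10g09210 and Cz04g13130. Cz10g09210 had 1.87, 1.77 and 1.99 FPKM in HL 10 mM, against 0.866, 1.01 and 0.895 FPKM in LL 10 mM, a difference of 0.76. Cz04g13130 had 15.0, 12.7 and 15.8 FPKM in HL 10 mM, against 8.54, 7.06 and 9.80 FPKM in LL 10 mM, a difference of 0.62. Only 3 members reached 0.5 in this direction. The 5 genes that met every other clause and exceeded the cap had differences of 1.12 to 2.85. Among them Cz17g16050 had 21.9, 17.3 and 21 FPKM in HL 10 mM, against 1.44, 1.52 and 1.71 FPKM in LL 10 mM, and UNPLg00451 and UNPLg00452 directly follow the member UNPLg00450 in ID order.

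The threshold on the nitrate difference was crossed by a narrow margin by several members. Just inside were Cz07g31230 with a smaller difference of 2.04, Cz04g23120 with 2.03 and Cz04g13130 with 2.02. Just outside, and meeting every other clause, were Cz15g00060 with 1.99 and Cz07g24100 and Cz12g25060 with 1.96. Cz04g23120 had 12.6, 12.6 and 12.3 FPKM in HL 1 mM, against 0.849, 0.433 and 1.05 FPKM in HL 10 mM, and 9.24, 10.8 and 12.4 FPKM in LL 1 mM, against 1.12, 0.798 and 1.06 FPKM in LL 10 mM. Cz15g00060 had 39.1, 34.8 and 39.8 FPKM in HL 1 mM, against 4.64, 3.6 and 5.16 FPKM in HL 10 mM, and 37.3, 32.5 and 37.1 FPKM in LL 1 mM, against 6.41, 5.94 and 5.12 FPKM in LL 10 mM. Genes on either side of the limit thus had much the same pattern.

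The comparison of HL 1 mM with LL 1 mM asks whether irradiance moved the members once nitrate was low. It was no threshold of the rule, but its libraries entered both nitrate differences, so it is not independent of the choice of members. At an adjusted p under 0.05 in limma, 15 of 94 members (16%) were higher in HL 1 mM than in LL 1 mM, while 421 of all genes, or 2.82%, passed in this direction. All genes include many at very low levels. With only genes averaging at least 1 FPKM kept, limma called 495 of 13054 genes higher, or 3.79%, and 15 members. Of the members, 0 were lower, against 360 or 2.41% of all genes, and at an unadjusted p under 0.05 limma gave 31 members higher (33% of them, against 10.9% of all genes) and 0 lower (against 10.6%). Counting only changes of at least 2-fold, 1 member was higher and 0 were lower, where the shares of all genes were 0.275% and 0.402%. With the replicate number as a block, limma called 19 members higher, including all 15, and 0 lower, with 671 genes higher and 637 lower in all. The remaining 79 members did not pass.

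These counts depended on the scaling of the libraries. Without quantile normalization limma called 12 members higher, with 698 genes higher and 161 lower in all, in place of 421 and 360. After scaling to the same median it called 7 members higher, with 188 genes higher and 294 lower in all. The median of HL 1 mM minus LL 1 mM over the members was 0.13 against -0.00418 over all genes, but 0.15 against 0.10 without quantile normalization and 0.00691 against -0.05 with median scaling. A positive difference was found for 67 members (71.3%) against 48.6% of all genes, for 76 (80.9%) against 70.9% without quantile normalization, and for 48 (51.1%) against 40.4% with median scaling. For the 10 members above 1000 FPKM at 1 mM, the median difference was 0.28 with quantile normalization, 0.06 without it and -0.09 with median scaling. The sign of this median thus changed with the scaling, and it was not tested.

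**Figure D4:**
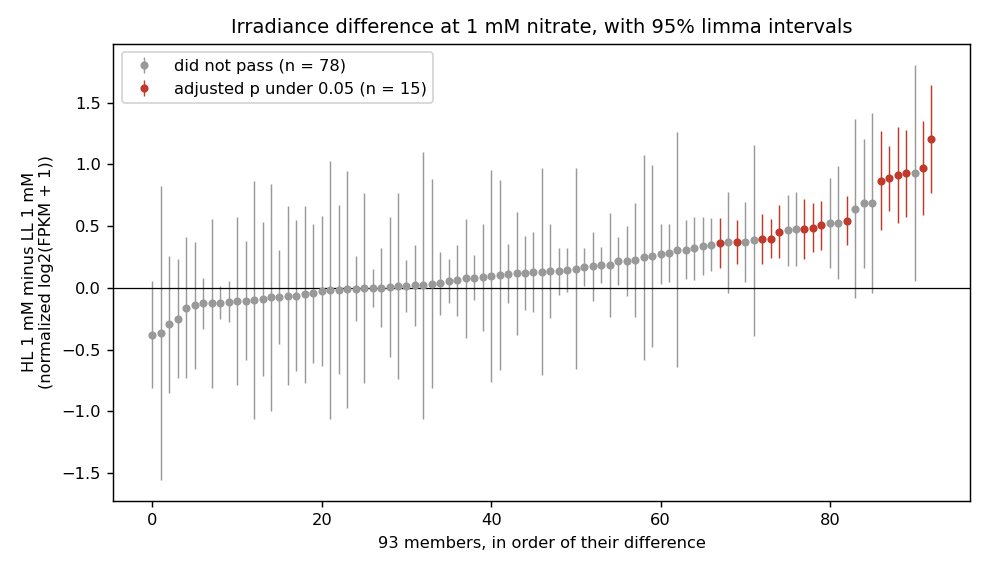
HL 1 mM minus LL 1 mM on the normalized log2(FPKM + 1) scale for 93 members in order of their difference (Cz01g28180 is not drawn), with 95% intervals from limma; red marks the 15 members with an adjusted p under 0.05. All 15 lie above 0, the highest being Cz05g34160 at 1.21.

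Among the 15 members called, the largest light difference at 1 mM was that of Cz05g34160, the only one of them past 2-fold. Cz01g28180, listed at 0 in a library of LL 1 mM, had a fitted difference of 2.60 that did not pass (limma, adjusted p = 0.621). Cz05g34160 had 142, 160.2 and 214 FPKM in HL 1 mM, against 56.7, 67.4 and 95.9 FPKM in LL 1 mM, a difference of 1.21 ± 0.20 (SE; limma, adjusted p = 0.00684). At 10 mM its libraries overlapped, with 5.44, 5.65 and 8.23 FPKM in HL 10 mM, against 7.88, 7.72 and 8.71 FPKM in LL 10 mM. In both conditions at 1 mM replicate 3 was the highest and replicate 1 the lowest.

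Cz10g23260 had 813, 848 and 896 FPKM in HL 1 mM, against 431, 462 and 639 FPKM in LL 1 mM, which do not overlap (0.97 ± 0.17, SE; limma, adjusted p = 0.0102). At 10 mM nitrate it had 35.2, 34.6 and 50.3 FPKM in HL 10 mM, against 58.9, 49.4 and 57.9 FPKM in LL 10 mM, which overlap. Cz14g08160 was the steadiest of the group at HL, with 134, 133 and 134 FPKM in HL 1 mM, against 72.9, 71.6 and 61.1 FPKM in LL 1 mM (0.93 ± 0.16, SE; limma, adjusted p = 0.00917). Cz04g29220 had 1288, 1486 and 1581 FPKM in HL 1 mM, against 727, 889 and 1141 FPKM in LL 1 mM (0.91 ± 0.18, SE; limma, adjusted p = 0.0156). It was not called with median scaling, at a difference of 0.53 (limma, adjusted p = 0.0713). Cz09g23310 had 157, 154 and 174 FPKM in HL 1 mM, against 97.9, 83.6 and 75.1 FPKM in LL 1 mM, with the lowest adjusted p of the members (0.89 ± 0.12, SE; limma, adjusted p = 0.00223).

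The other 10 members called were higher by 0.36 to 0.87. Cz07g29210 (0.87), Cz07g09250 (0.55) and Cz10g09210 (0.49) were called under all 3 scalings, as were Cz05g34160, Cz10g23260, Cz14g08160 and Cz09g23310 above. With a pseudocount of 0.1 in place of 1, Cz07g29210 (limma, adjusted p = 0.0512) and Cz10g09210 (limma, adjusted p = 0.0519) were not called. Cz01g08280 (0.48), Cz14g03070 (0.40) and Cz04g19270 (0.39) were called without quantile normalization but not with median scaling. Cz06g25040, called at 0.51 ± 0.09 (SE; limma, adjusted p = 0.00961), was at 0.23 without quantile normalization and 0.08 with median scaling, not called in either. Cz08g15160 (0.37) and Cz11g09250 (0.36) were likewise called with quantile normalization alone.

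Cz08g30210 turned direction. Its deposited values overlapped, at 4115, 3902 and 3368 FPKM in HL 1 mM, against 3982, 3809 and 3615 FPKM in LL 1 mM, and its difference of 0.45 ± 0.10 (SE; limma, adjusted p = 0.0246) came with quantile normalization only. Without that step the difference was -0.00655 (limma, adjusted p = 0.982), and with median scaling -0.15 (limma, adjusted p = 0.412), so it was not called lower in either. Its quantile-normalized log2 values were 12.65, 12.59 and 12.51 in HL 1 mM, against 12.20, 12.14 and 12.05 in LL 1 mM. At 10 mM Cz08g30210 had 382, 325 and 366 FPKM in HL 10 mM, against 291, 236 and 252 FPKM in LL 10 mM.

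Among the members first by the smaller nitrate difference, Cz13g08120 was higher by 0.48 in HL 1 mM than in LL 1 mM without passing the test (95% interval 0.18 to 0.78; limma, adjusted p = 0.0708). Cz08g13170 was at -0.13 (-0.33 to 0.08) and Cz07g31020 at 0.06 (-0.23 to 0.35), so that a 2-fold light difference lies outside both intervals. For Cz14g15160, at 0.16, the interval of -0.66 to 0.97 is too wide for such a statement. Cz03g21010, at 0.52 (0.16 to 0.89), did not pass either (limma, adjusted p = 0.10), although its libraries differed at 10 mM as given above.

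Some members lay next to each other in ID order. Of the 94, 20 (21.3%) had a member on the next or previous ID, in 10 pairs, against 167 of 15180 other genes (1.1%). No run held more than 2. IDs of the form used carry a chromosome number, and members were found on 18 of 19 numbered chromosomes, with 9 more on unplaced sequence. The highest shares on numbered chromosomes were 5 of 270 genes (1.85%) on chromosome 17, 7 of 663 (1.06%) on chromosome 14 and 9 of 870 (1.03%) on chromosome 7. Over all genes listed, members were 94 of 15274. Unplaced sequence held 9 of 847 (1.06%) and chromosome 8 held 7 of 819 (0.855%). Among chromosomes with a member, the lowest share was 0.0895%, on chromosome 2. These counts are small, and their distribution was not tested.

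The pair Cz14g15150 and Cz14g15160 moved together down to single libraries. Cz14g15150 had 365, 402 and 429 FPKM in HL 1 mM, against 19.1, 8.11 and 13.5 FPKM in HL 10 mM, and 433, 357 and 307 FPKM in LL 1 mM, against 37.7, 17.4 and 8.58 FPKM in LL 10 mM. In every condition the order of its 3 libraries was that of its neighbour. Cz08g30200, beside Cz08g30210, had 1325, 1336 and 1150 FPKM in HL 1 mM, against 112, 105 and 126 FPKM in HL 10 mM, and 1340, 1193 and 1232 FPKM in LL 1 mM, against 89.5, 79.6 and 83.0 FPKM in LL 10 mM. Both are among the 10 most abundant members at 1 mM. Whether the members of a pair are copies that share reads was not tested, and the level of each is uncertain to that extent.

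In 2 other pairs the neighbours differed in level. Cz05g05010 had 177, 155 and 171 FPKM in HL 1 mM, against 9.73, 9.32 and 10.0 FPKM in HL 10 mM, while Cz05g05020 had 19.4, 18 and 21.2 FPKM in HL 1 mM, against 0, 1.15 and 0.884 FPKM in HL 10 mM. Cz03g10040 had 81.9, 164 and 206 FPKM in HL 1 mM, against 9.61, 5.12 and 6.37 FPKM in HL 10 mM, and 93.8, 149 and 140.3 FPKM in LL 1 mM, against 9.51, 8.0 and 5.03 FPKM in LL 10 mM. Its neighbour Cz03g10050 had 13.7, 32.9 and 41.7 FPKM in HL 1 mM, against 1.24, 1.85 and 1.97 FPKM in HL 10 mM. In both genes replicate 1 was the lowest library of HL 1 mM.

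The nitrate differences of the rule were taken from means over 3 libraries, so the spread within a condition at 1 mM was no criterion, whereas the minimum of 1 FPKM looked at single libraries at 10 mM. The members had a larger median SD than all genes on the normalized log2 scale: 0.158 for HL 1 mM, 0.161 for HL 10 mM, 0.186 for LL 1 mM and 0.176 for LL 10 mM among the members, against 0.10, 0.118, 0.114 and 0.117 over all genes. Over genes with a mean above 3 on this scale the median SD was 0.0917 to 0.105. In deposited FPKM the highest library of a condition exceeded the lowest by a median factor of 1.22 for HL 1 mM, 1.44 for HL 10 mM, 1.27 for LL 1 mM and 1.39 for LL 10 mM, with extremes of 3.05 to 4.80 where no library was at 0.

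Much of the spread at 1 mM lay in replicate 1. It was the lowest library of HL 1 mM for 56 members (59.6%, against 32.7% of all genes) and of LL 1 mM for 48 (51.1%, against 35.5%). It fell 0.5 or more below the mean of replicates 2 and 3 for 30 members in HL 1 mM (31.9%, against 2.21% of all genes) and for 20 in LL 1 mM (21.3%, against 2.31%). In 16 members this held in both conditions, among them Cz03g10040, Cz03g10050 and Cz07g31230. These 16 varied by a median factor of 2.18 between the highest and lowest library of HL 1 mM, against 1.18 in the other members. Of the 16, 0 passed the test of HL 1 mM against LL 1 mM. Both results follow at least in part from choosing members with a low replicate 1, so nothing is read from them. In HL 10 mM the lowest library was replicate 2, for 56 members (59.6%, against 30.4% of all genes).

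**Figure D5:**
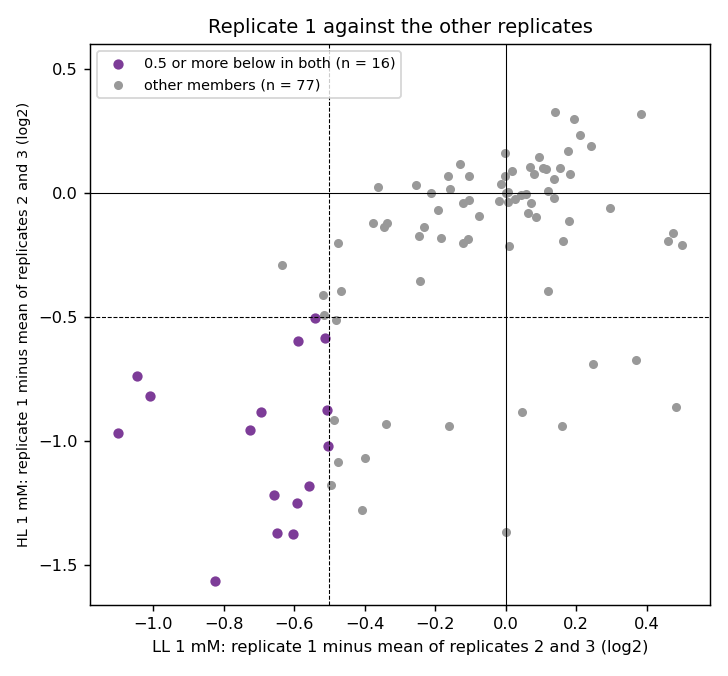
Replicate 1 minus the mean of replicates 2 and 3 on the normalized log2(FPKM + 1) scale for 93 members (Cz01g28180 is not drawn), with LL 1 mM on the x axis and HL 1 mM on the y axis; dashed lines mark -0.5. The 16 purple points are 0.5 or more lower in both conditions, while few members lie far above 0 on either axis.

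The count of members called in the light comparison at 1 mM changed with single libraries, as did that of all genes. Leaving out replicate 2 of LL 1 mM left 5 members called higher (5.32%, against 1.28% of all genes), leaving out replicate 1 of LL 1 mM left 7 (7.45%, against 1.18%) and leaving out replicate 2 of HL 1 mM left 8 (8.51%, against 1.38%). Leaving out replicate 1 of HL 1 mM left 11 (11.7%, against 1.46%), and leaving out replicate 1 of all 4 conditions, an alternative chosen after the data were seen, left 2, with 64 genes higher and 76 lower in all. Calls for Cz05g34160, Cz06g25040, Cz07g09250, Cz09g23310 and Cz14g08160 held whichever single library was left out. In a fit of only the 6 libraries compared, 7 of the 15 calls held, and Cz05g34160 (limma, adjusted p = 0.0688), Cz10g23260 (0.0569) and Cz04g29220 (0.0751) were not called.

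The 18 genes with the same nitrate differences that stayed under 1 FPKM in every library at 10 mM were lower at 1 mM as well, with means of 6.84 to 153 FPKM and a median of 19.7. Of these 18, 4 were higher and 0 lower in HL 1 mM than in LL 1 mM in limma at the adjusted p of 0.05. Their median difference was 0.42, and these values are with quantile normalization. For comparison, 15 of 94 members (16%) and 421 of all genes (2.82%) were higher, and the median over the members was 0.13. Calls in this direction alone were thus not particular to the members. Of the 25 genes of carotenoid synthesis that the study names, 0 met the nitrate thresholds. The highest nitrate difference among them was 1.41 in HL, for CVDE, which the study counts among the β-cyclases. In LL it was 1.73, for CRTISO2, named as a carotenoid isomerase. In HL 1 mM against LL 1 mM, 5 of the 25 were higher, BKT1 (0.86), which encodes the ketolase of astaxanthin synthesis, CRTISO1 (0.36), CRTISO2 (1.57), LCYb (0.27), a lycopene cyclase, and CVDE (0.36), while CYP97A2 (-0.28) and LCYe (-0.38) were lower and 18 did not pass. The study published results for this list from the same samples, so its direction is not independent evidence.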

How the data were processed

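Transcriptomes of 12 libraries, 3 for each of 4 conditions, were compared. According to the methods and labels, the authors made stranded mRNA libraries, checked reads with FastQC, mapped them to the published genome with HISAT2 and quantified genes with StringTie in the MARACAS pipeline. The FPKM values were used as deposited by the authors, before the quantile normalization that the study applied. They carry no read counts, so the counting error of a value is unknown. Grouping followed the labels, and 0 columns belonged to other samples.

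Of 15274 genes, 358 were at 0 throughout and were dropped. A pseudocount of 1 was added, log2 taken, and the 14916 genes quantile-normalized with limma 3.58.1 in R 4.3.3. The rule was applied to condition means. HL 1 mM was compared with LL 1 mM in a limma model of the 4 conditions with default variance moderation (prior degrees of freedom 2.63) and Benjamini-Hochberg adjustment over all genes. With 3 libraries against 3, an exact permutation test cannot go below a p of 0.1. The fit and the rule were tested on simulated data. Deviations of same-numbered libraries from their group means correlated at r = 0.15 to 0.44 across genes between HL 1 mM and LL 1 mM, over 0.1 in every pair. Over all conditions, 12 of 18 same-numbered pairs were over 0.1, and the lowest was at -0.06. Differently numbered pairs ranged from -0.42 to 0.35, so a pairing by number is not settled. The main fit did not pair libraries, and the replicate block, an alternative, paired them in all 4 conditions. Any such pairing comes from the data, since no label says what a number marks.

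The members and lists were chosen with earlier results of these data known. The genes named were members with the largest values of the smaller nitrate difference, the highest levels at 1 and at 10 mM, the largest light differences at 1 mM, consecutive IDs, and places nearest the thresholds. No gene products, sequences or pathway lists beyond carotenoid synthesis were used here.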

Additional observations from a re-analysis of the deposited data

Results flagged for a closer look

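In 9 members the light difference pointed one way at 1 mM nitrate and the other way at 10 mM, with no overlap of the normalized HL and LL libraries at either concentration. In 8 of them HL 1 mM was above LL 1 mM and HL 10 mM below LL 10 mM. The light difference at 1 mM minus that at 10 mM was 2.55 in Cz03g21010, 1.66 in Cz01g08270, 1.57 in Cz10g23260, 1.37 in Cz04g29220, 1.07 in Cz05g16220, 1.03 in Cz01g08280, 0.55 in Cz11g09250 and 0.38 in Cz05g12170. In Cz07g00020, at -0.32, HL 1 mM was below LL 1 mM and HL 10 mM above LL 10 mM. None of these differences was tested, since the rule used both nitrate differences, whose difference this is. The same count was not made over all genes, so the 9 are not read as a trait of the members. In the deposited FPKM, which are not normalized, the HL and LL libraries of 5 of the 9 overlapped at one nitrate concentration or both. These were Cz03g21010 at 1 mM, Cz04g29220, Cz10g23260 and Cz11g09250 at 10 mM, and Cz05g12170 at both. Cz01g08270 and Cz01g08280 carry consecutive IDs. Cz01g08270, Cz05g16220 and Cz07g00020 were outside the rule for named genes and are named after their values were seen.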

How the results depend on the processing

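The member count was 195 without quantile normalization (93 of the 94 among them), 190 at a threshold of 1.5 and 50 at 2.5, and 87 to 97 when single libraries were left out. Members higher in HL 1 mM than in LL 1 mM numbered 7 with median scaling, 9 in a fit of only the 6 libraries compared, 1 with the 2-fold requirement, and 5 (without replicate 2 of LL 1 mM) to 19 (without replicate 3 of LL 1 mM) when single libraries were left out, while 0 were lower under each alternative run. Over all genes, the counts higher and lower were 698 and 161 without quantile normalization, 222 and 181 in the fit of 6 libraries, 41 and 60 with the 2-fold requirement, 176 to 726 and 134 to 610 when single libraries were left out, and 671 and 637 with the replicate block. Median scaling gave 188 higher and 294 lower. Without replicate 1 of all conditions, added after the data were seen, 64 genes were higher and 76 lower, and 2 members higher. The replicate block ended none of the 15 calls of members. With a pseudocount of 0.1, 126 genes met the rule, 93 of the 94 among them. In that fit 10 members were called higher (10.6%, against 2.17% of all genes). Cz08g30210 was at -0.00655 without quantile normalization and -0.15 with median scaling, not called in either, and its normalized value at 1 mM depends on its rank. The cause of the other changes was not tested. Over the 15 members called and their alternatives, 300 values, 218 kept their call, 80 lost it in the same direction and 2 lost it with a change of sign. The median over members was 0.06 to 0.31 when single libraries were left out. The depth behind low values, such as those of members under 1 FPKM at 10 mM, is unknown.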
